A study of Nothobranchius furzeri with 9 samples.

Results

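Genes of the cartilage and bone matrix, collagens aside, and of the transcription factors that direct skeletal cells were followed through 3 ages in skeletal muscle of the turquoise killifish *Nothobranchius furzeri*, a short-lived annual fish used in aging research. The set held 10 genes given by name: ACAN, COMP, MATN1, MATN3, CHAD, SOX9, RUNX2, SP7, BGLAP and SPARC. Every table entry whose name equals one of them, alone or with a final A or B, was taken and kept apart, which gave 15 of 39396 entries for 8 of the 10 genes. COMP and BGLAP (osteocalcin) had no entry under these names; a RefSeq annotation of a later assembly holds genes with the symbols comp and bglapl, but neither name is in the table used here, and both genes were not analysed.

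Whole skeletal muscle of male fish of strain MZM-04/10 was collected in the study, and RNA of 3 fish per age gave 3 libraries per age, taken here as 1 per fish: young fish of 5 weeks, adult fish of 20 weeks and old fish of 35 weeks. No group was treated or genetically altered; all were sacrificed at the same hour in fasted state. The values were normalized counts: the authors had divided the reads of each gene by a size factor of the library and rounded the quotient. The steps between low values put the depth at about 7960000 to 14240000 reads on genes per library, so that 1 read was worth 0.801 to 1.44 normalized counts. The table gave no gene lengths, and levels are therefore not compared between genes.

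Cartilage is built by chondrocytes, which fill the matrix around them with collagen fibrils and with aggrecan, a large proteoglycan that binds water and resists compression. Matrilins and chondroadherin are smaller adaptor proteins that link these components to each other and to cells. In mammals and fish SOX9 is the transcription factor that commits cells to the chondrocyte fate, RUNX2 that which starts the osteoblast program, and SP7 (osterix) acts after RUNX2 and is needed for osteoblasts to mature. SPARC aside, these genes are known mainly from skeletal tissue and not from the muscle fibre. In the fish trunk the muscle lies against vertebrae and ribs, and the methods do not describe how far such tissue was trimmed away. SPARC, or osteonectin, differs from the rest of the set in that fibroblasts of many tissues make it together with fibrillar collagen. Teleosts often keep a pair of copies of such genes, marked A and B, where mammals have a single one.

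A mean of 5 over the 9 libraries was required for a test, and 12 of the 15 entries reached it. The 3 entries named ACAN without a letter did not: entries 554768 and 557677 were at 0 in all libraries, and entry 32023 had 1 normalized count in adult replicate 1 and 0 elsewhere. These 12 entered limma as log2(value + 1), with all 9 libraries in 1 fit, and p-values were adjusted by Benjamini-Hochberg over the 17454 entries tested. For a call the adjusted p had to reach 0.05 and the level had to differ 2-fold, a log2 fold change of 1 or more up or down. Both MATN3 entries passed the filter on their young values alone, and SOX9 entry 318686 passed it only with its young values. The counts over the tested entries are therefore given as a description. The plot of the value in each library shows the 12 entries.

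**Figure D1:**
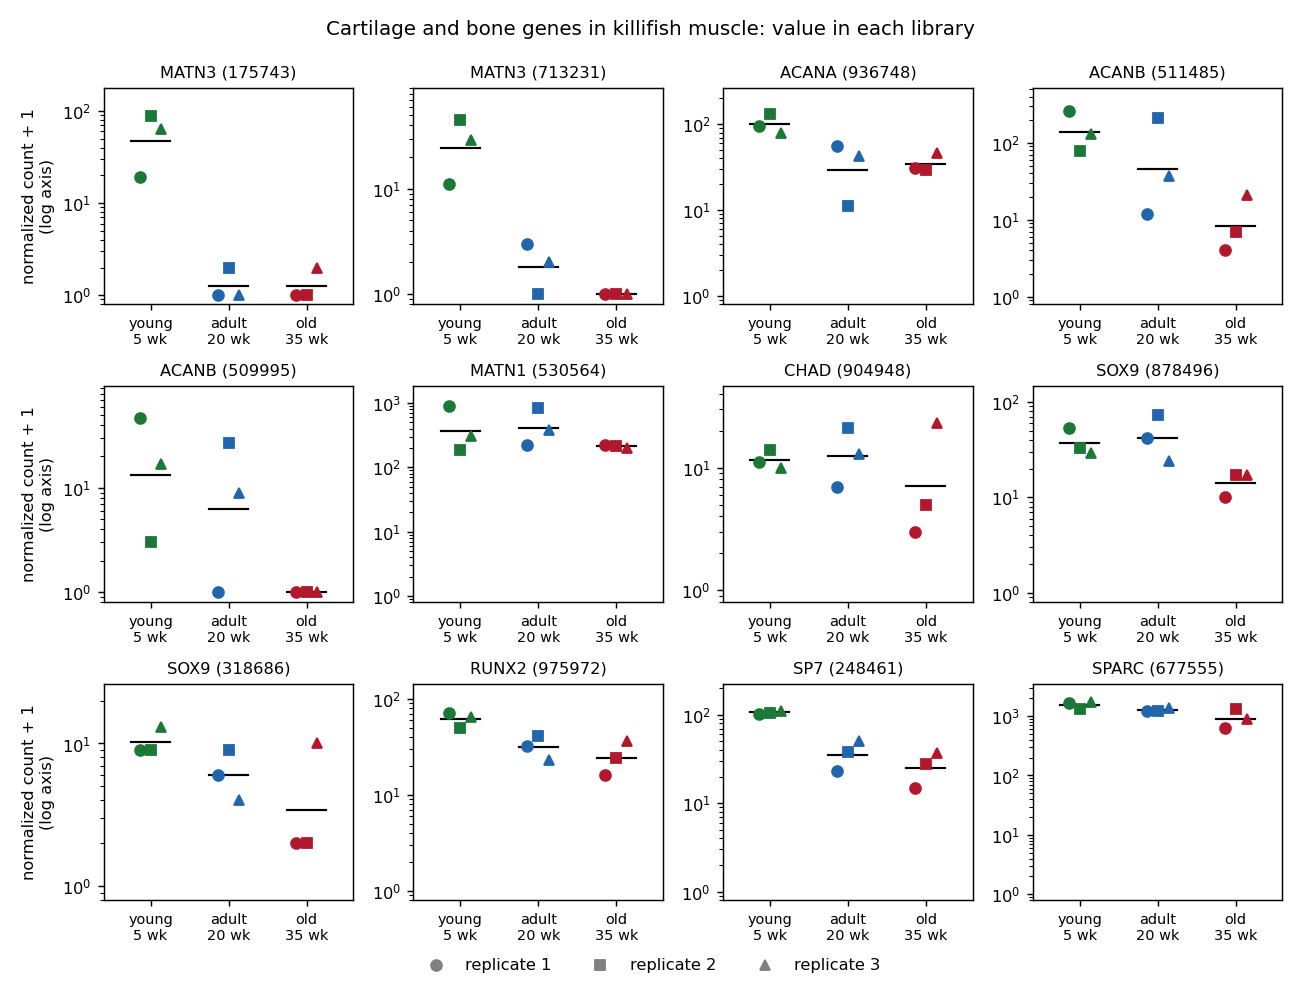
Normalized count plus 1 (log axis) of the 12 tested entries in young (5 weeks, green), adult (20 weeks, blue) and old (35 weeks, red) muscle; each point is 1 library, its shape gives the replicate number, and the line is the mean of the 3 log values. MATN3 was at or under 2 normalized counts in all adult and old libraries, while MATN1 and ACANB varied strongly within the young and adult groups.

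The tissue markers were as labelled: 32 entries of muscle fibre genes made up 31.9 to 39.8% of each library, and 0 of the 24 tested were called in any comparison with limma (Benjamini-Hochberg). Single libraries stood apart within their age. The share of muscle fibre genes was lowest, at 31.9%, in adult replicate 2. In young replicate 1 an entry of STC1, a hormone gene that in teleosts is active in the corpuscles of Stannius beside the kidney, had 797 normalized counts (entry 365028), against 0 and 1 in the other young libraries and 0 in all adult and old ones. Entries of epidermis genes summed to 18978 normalized counts in old replicate 3, against 6748 and 6750 in the other old libraries. Which of these libraries carries a result is said with that result, and their part in it was not tested.

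In old versus young muscle 8 of the 12 tested entries were called lower and 0 higher, where 9.84% of all tested entries were called lower and 7.91% higher. These were both MATN3 entries, ACANA, both ACANB entries, 1 of the 2 SOX9 entries, RUNX2 and SP7. The median log2 fold change of the 12 entries was -1.55, against -0.03 over all tested entries. In adult versus young muscle 4 of 12 were called lower and 0 higher, namely both MATN3 entries, ACANA and SP7, where 11.4% of all tested entries were called lower and 10.7% higher; the median was -1.04, against -0.00. In old versus adult muscle limma called 0 of the 12, where 1.26% of all tested entries were called lower and 0.825% higher, and 3 had an unadjusted p under 0.05. The treat test of limma is stricter and could only give 0 here, so it adds nothing to this. The F test of limma over the 3 ages gave 7 of 12 entries at an adjusted p of at most 0.05, with 35.4% over all tested entries. The count of 8 for old versus young muscle changed when single libraries were left out: it was 5 without young replicate 1 and 5 without old replicate 1. Over all tested entries the share called lower fell as well, to 8.01% and 7.75% in these fits, against 9.84% with all libraries. Because muscle was taken whole, fewer skeletal cells in a sample and less RNA per cell cannot be told apart.

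**Figure D2:**
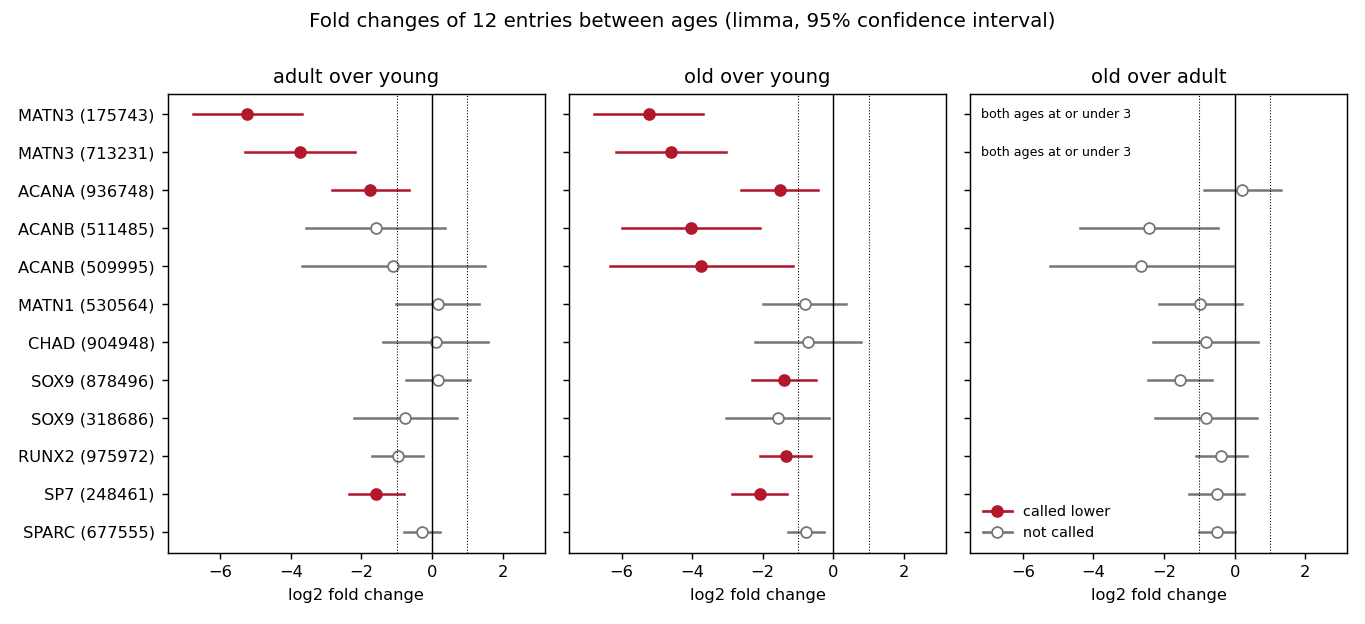
Log2 fold changes with 95% confidence intervals (limma) of the 12 tested entries for adult over young, old over young and old over adult muscle; filled red points were called lower and open grey points were not called, and dotted lines mark a 2-fold change. The old over young panel has 8 red points and the old over adult panel has none; MATN3 is not drawn there because both ages were at or under 3 normalized counts.

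MATN3, a matrilin best known from the growing cartilage of the growth plate, was above 3 normalized counts in young libraries alone. Entry 175743 had 18, 87 and 63 normalized counts in young fish, 0, 1 and 0 in adult fish and 0, 0 and 1 in old fish. Every young library lay far above every other one, and adult and old muscle were at the limit of detection. Counted as reads, the level was 185-fold lower in adult than in young fish (95% counting interval 32.7 to 7329, 1 read against 191) and 136-fold lower in old than in young fish (24 to 5384, 1 read against 191); these exact intervals cover counting error only. Because the entry passed the filter on low values through its young libraries, its call by limma is given with no p.

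The second MATN3 entry, 713231, had 10, 44 and 28 normalized counts in young fish, 2, 0 and 1 in adult fish and 0, 0 and 0 in old fish. It was again present in young fish and near or at 0 in both later ages. It was 30.3-fold lower in adult than in young muscle (counting interval 10 to 149, 3 reads against 94). In old muscle, with all libraries at 0, it was at least 9.11-fold lower than in young muscle when a floor of 3 normalized counts per library is used, and at least 6.33-fold lower without young replicate 2. The entry with more reads exceeded the other by 1.80, 1.98 and 2.25 times in the 3 young libraries. The RefSeq annotation has 1 symbol of this family, matn3a, and whether the entries are parts of 1 gene or a pair of copies is not settled by the table.

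Within young fish MATN3 was highest in replicate 2 and lowest in replicate 1. The nerve gene NEFMA, a neurofilament, had the same order with 294, 1039 and 768 normalized counts in young fish, 0, 7 and 7 in adult fish and 2, 1 and 4 in old fish, and so did SNAP25 of the synapse, with 196, 658 and 332 in young fish, 6, 5 and 10 in adult fish and 19, 11 and 10 in old fish. Of 14 tested entries of nerve and Schwann cell markers, 6 were called lower in adult and 7 in old versus young muscle with limma, and 0 were called higher. Several of these entries, namely NEFMA, NEFLA, NEFLB, PLP1B and ELAVL4, passed the filter on low values only through their young libraries. The counts are therefore given as a description. The median in old versus young muscle was -1.55 log2. The whole list summed to 3676 to 7253 normalized counts in young fish, 3984 to 4265 in adult fish and 3733 to 4678 in old fish. Some cartilage entries had this order too: COL9A1 entry 925931 had 43, 168 and 121 normalized counts in young fish, and LECT1 entry 465935 had 7, 40 and 21. Other entries of both genes were highest in young replicate 1. The part of nerve or cartilage tissue in the MATN3 result was not tested.

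Aggrecan was represented by ACANA and by ACANB with a pair of entries. ACANA (entry 936748) had 94, 130 and 78 normalized counts in young fish, 54, 10 and 42 in adult fish and 30, 28 and 45 in old fish. All adult and all old values lay below the lowest young one, and adult replicate 2 was the lowest library of all. It was lower in adult than in young muscle by limma (log2 fold change -1.75 with a standard error of 0.50, adjusted p = 0.0194) and lower in old than in young muscle (-1.52, standard error 0.50, adjusted p = 0.0417, limma). Old and adult muscle overlapped (0.22, 95% interval -0.87 to 1.31, adjusted p = 0.832, limma). With 1 library left out, the old versus young call did not hold in 5 of 9 fits, with log2 fold changes of -1.73 to -1.32 over the 9 fits; without young replicate 2, which was the highest, that in adult fish did not hold either (adjusted p = 0.0763, limma), and without adult replicate 2, the lowest, it held with a smaller log2 fold change of -1.03. The most similar profile among tested entries with a gene name was that of PCDH17, a cell adhesion gene (entry 461891, difference 0.32, against a median of 1.11). PCDH17 had 29, 63 and 41 normalized counts in young fish, 17, 4 and 14 in adult fish and 10, 16 and 14 in old fish.

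The larger ACANB entry, 511485, behaved differently within the ages. It had 255, 78 and 128 normalized counts in young fish, 11, 209 and 36 in adult fish and 3, 6 and 20 in old fish. The old libraries were the lowest apart from adult replicate 1, while adult replicate 2 lay above 2 of the 3 young libraries. It was lower in old than in young muscle (log2 fold change -4.04, standard error 0.89, adjusted p = 0.00737, limma), and this call was kept in each fit without 1 library. Between adult and young muscle the log2 fold change was -1.60 with a 95% interval of -3.56 to 0.36 (adjusted p = 0.192, limma); without adult replicate 2 it was -2.71 and was called (adjusted p = 0.0215, limma), and without adult replicate 1 it was -0.64 and not called. Between old and adult muscle it was -2.44 (-4.40 to -0.48, adjusted p = 0.155, limma), and without adult replicate 1 it was -3.40 and was called (adjusted p = 0.0464, limma), while without adult replicate 2 it was -1.33 (adjusted p = 0.432, limma). Among tested entries with a gene name, no profile came close to that of this entry. The nearest, SEMA5B, LOXL4 and HOXA9, differed from it by 0.85, 0.87 and 0.90, against a median of 2.08.

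The smaller ACANB entry, 509995, had 46, 2 and 16 normalized counts in young fish, 0, 26 and 8 in adult fish and 0, 0 and 0 in old fish. Its high libraries, young replicate 1 and adult replicate 2, were those of the larger entry. Old muscle was at least 7.11-fold lower than young muscle from the floor of 3 per library (adjusted p = 0.0366, limma) and at least 3-fold lower without young replicate 1, but with 1 library left out the call did not hold in 6 of 9 fits, nor with the replicate number as a block (adjusted p = 0.0614, limma). The RefSeq annotation lists acanb once, so here too the entries may or may not belong to 1 gene. It holds no symbol acana. ACANA and ACANB thus shared the lower level in old fish but not the high value of adult replicate 2, where ACANA had 10 normalized counts and ACANB 209.

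MATN1, the matrilin of mature cartilage, had 914, 184 and 304 normalized counts in young fish, 223, 840 and 380 in adult fish and 224, 216 and 196 in old fish. Young replicate 1 and adult replicate 2 stood above all other libraries, and the old libraries were close to each other, at 212 ± 14.4 (SD, n = 3). No difference between ages passed the test: it was -0.81 log2 for old against young fish (95% interval -1.98 to 0.36, adjusted p = 0.284), 0.16 for adult against young fish (-1.01 to 1.33, adjusted p = 0.845) and -0.97 for old against adult fish (-2.14 to 0.21, adjusted p = 0.333, all by limma). The adult versus young value was -0.35 without adult replicate 2 and 0.81 without young replicate 1. Of all tested entries with a gene name, the profile most like that of MATN1 was that of HAPLN1 (entry 569228), the link protein that fastens aggrecan to hyaluronan. It had 57, 20 and 25 normalized counts in young fish, 19, 49 and 30 in adult fish and 28, 16 and 19 in old fish, and the root mean square difference of the centred log2 profiles over the 9 libraries was 0.34, against a median of 0.97 over all such entries. TRPV4 (entry 372410, difference 0.41), a calcium channel, and DNAH2 (entry 665791, difference 0.42), a dynein of cilia, followed. The other HAPLN1 entry, 797565, had its lowest adult value in replicate 2. It had 1019, 558 and 895 normalized counts in young fish, 438, 360 and 534 in adult fish and 77, 363 and 237 in old fish.

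CHAD, or chondroadherin, had 10, 13 and 9 normalized counts in young fish, 6, 20 and 12 in adult fish and 2, 4 and 22 in old fish. The 3 ages overlapped, and old replicate 3, the library with the highest epidermis sum, was the highest of all. The log2 fold change between old and young muscle was -0.72 (95% interval -2.21 to 0.77, adjusted p = 0.462, limma); it was -1.58 without old replicate 3 and -0.11 without old replicate 1, called in neither (adjusted p = 0.0522 and 0.925). Adult and young muscle differed by 0.10 log2 (-1.39 to 1.60, adjusted p = 0.924, limma).

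**Figure D3:**
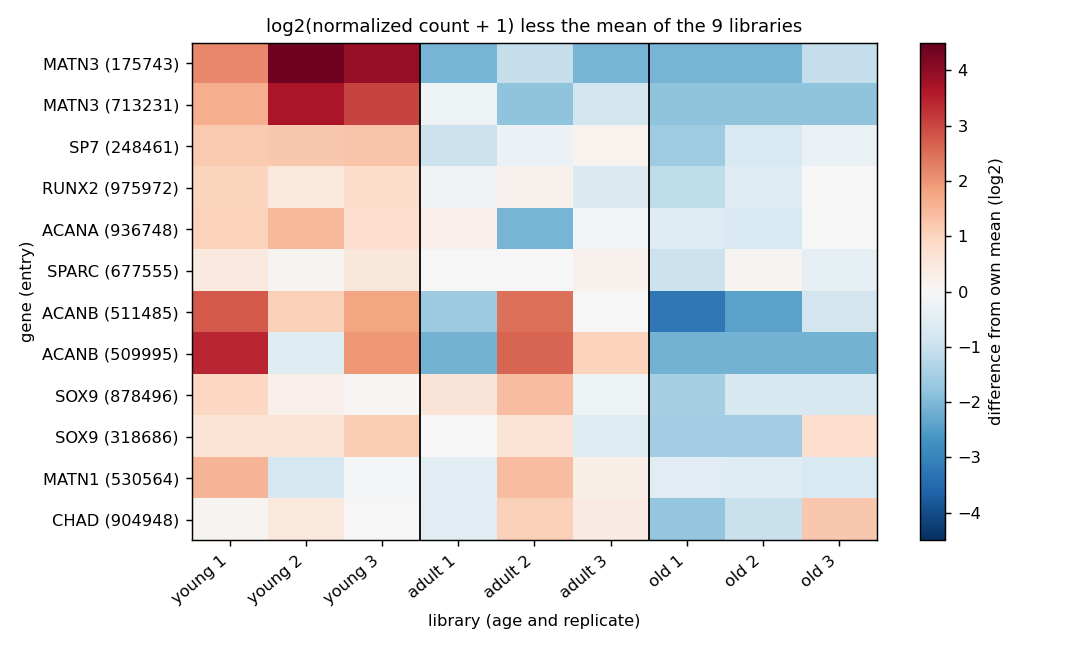
Log2(normalized count + 1) of each tested entry less its own mean over the 9 libraries, from blue (below) through white to red (above), with libraries in columns by age and entries in rows. Both MATN3 rows are red in the young columns alone; the rows of ACANB and MATN1 are also red in adult replicate 2, and those of CHAD and SOX9 entry 318686 in old replicate 3.

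Among the transcription factors SP7 had the most even values within the young group. It had 102, 104 and 110 normalized counts in young fish, 22, 37 and 50 in adult fish and 14, 27 and 36 in old fish. The young values lay close together (105 ± 4.16, SD, n = 3), and all 6 later libraries were below them. SP7 was lower in adult than in young muscle (log2 fold change -1.58 with a standard error of 0.36, adjusted p = 0.00608) and lower in old than in young muscle (-2.09, standard error 0.36, adjusted p = 0.00197, limma). Both calls were kept in each fit without 1 library. Old and adult fish overlapped (log2 fold change -0.51, 95% interval -1.29 to 0.27, adjusted p = 0.449, limma). The nearest profiles of entries with a gene name were those of ANGPT2B, DHCR7 and PFAS, with differences of 0.22, 0.23 and 0.24, against a median of 1.07. ANGPT2B codes for an angiopoietin, DHCR7 for the last step of cholesterol synthesis and PFAS for a step of purine synthesis, and DHCR7 (entry 195106) had 92, 109 and 120 normalized counts in young fish, 27, 30 and 60 in adult fish and 18, 23 and 32 in old fish.

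RUNX2, which acts before SP7, had 70, 49 and 63 normalized counts in young fish, 31, 40 and 22 in adult fish and 15, 23 and 35 in old fish. All adult and old libraries lay below the young ones, and adult and old values overlapped. It was lower in old than in young muscle (log2 fold change -1.35, standard error 0.33, adjusted p = 0.0124, limma). In adult versus young muscle the log2 fold change of -0.97 (standard error 0.33, adjusted p = 0.0417, limma) missed the 2-fold limit, which it passed without adult replicate 2 (-1.17, adjusted p = 0.039, limma); in 5 of the 9 fits with 1 library left out the adjusted p was over 0.05, up to 0.143, and it was 0.0674 with the replicate number as a block. Old and adult muscle differed by -0.38 log2 (-1.10 to 0.35, adjusted p = 0.555, limma). The RefSeq annotation lists 1 gene of this name, runx2b.

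SOX9 had a pair of entries, while the RefSeq annotation holds 0 symbols of this name, with or without a final A or B. Entry 878496 had 53, 32 and 28 normalized counts in young fish, 41, 72 and 23 in adult fish and 9, 16 and 16 in old fish. Old libraries were below all young and all adult ones, whereas young and adult values overlapped and adult replicate 2 was again the highest. It was lower in old than in young muscle (log2 fold change -1.39, standard error 0.42, adjusted p = 0.0293, limma); with 1 library left out the call did not hold in 3 of 9 fits, namely without young replicate 1 (-1.12), young replicate 2 (-1.47) and old replicate 1 (-1.13). Against adult muscle the log2 fold change in old fish was -1.56 (95% interval -2.47 to -0.65, adjusted p = 0.0704, limma). It was the only tested entry of the set whose old values lay entirely below the adult ones, which held for 10.3% of all tested entries. Between adult and young muscle the log2 fold change was 0.17 (-0.74 to 1.08, adjusted p = 0.783, limma).

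The other SOX9 entry, 318686, had 8, 8 and 12 normalized counts in young fish, 5, 8 and 3 in adult fish and 1, 1 and 9 in old fish. A pair of old libraries was under the floor of 3, and old replicate 3 lay within the young range. The log2 fold change between old and young muscle was -1.57 (standard error 0.66, limma) and was not called. Without old replicate 3 it was -2.35 and was called, while without old replicate 1 it was -1.19 and was not called. This entry passed the filter on low values only with its young libraries, so these results are given with no p.

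SPARC, the collagen-binding glycoprotein, had 1635, 1310 and 1716 normalized counts in young fish, 1195, 1217 and 1387 in adult fish and 618, 1301 and 904 in old fish. Young muscle averaged 1554 ± 215, adult muscle 1266 ± 105 and old muscle 941 ± 343 normalized counts (SD, n = 3 each). Old libraries were below all young ones, if narrowly for old replicate 2, and overlapped with adult ones. The log2 fold change between old and young muscle was -0.78 with an adjusted p of 0.0295 (standard error 0.23, limma), which is under the 2-fold limit; without old replicate 2 it was -1.04 and was called (adjusted p = 0.00463, limma), without old replicate 1 it was -0.51 (adjusted p = 0.0904, limma), and in 4 of the 9 fits with 1 library left out the adjusted p was over 0.05. Between adult and young muscle it was -0.29 (95% interval -0.80 to 0.22, adjusted p = 0.368, limma). Its nearest profile among entries with a gene name was that of BMP1 (entry 498821), the protease that cuts the ends off procollagens. The difference was 0.11, against a median of 0.65. BMP1 had 319, 256 and 347 normalized counts in young fish, 244, 266 and 273 in adult fish and 142, 238 and 208 in old fish. UNC13C, a gene of synaptic vesicle release, and an entry with a clone name in place of a gene symbol came next, each with a difference of 0.14. Old and adult muscle differed by -0.49 log2 (standard error 0.23, adjusted p = 0.265, limma).

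The old values lay entirely below the young ones for 9 of the 12 tested entries, where 22.4% of all tested entries showed this. The 9 were the 8 called entries and SPARC. For ACANB entry 509995 this rested on 2 normalized counts in young replicate 2 against 0 in old fish. In adult versus young muscle it was 5 of 12, namely both MATN3 entries, ACANA, RUNX2 and SP7, where the share over all tested entries was 26.3%. Both comparisons use the same young libraries. With 3 fish per age an exact permutation test of a single entry cannot give a two-sided p below 0.1, so the calls rest on a spread that limma shares across entries.

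Single libraries were the highest of their age for several entries of the set. Of the 12 tested entries, 8 had their highest adult value in replicate 2, against 34% of all tested entries; these were both ACANB entries, MATN1, CHAD, both SOX9 entries, RUNX2 and MATN3 entry 175743 with its single count. Among old libraries 7 of 12 were highest in replicate 3, against 31.2% of all. Other lists varied in this. Adult replicate 2 was highest for 8 of 28 relatives of the cartilage matrix genes and for 7 of 9 leukocyte markers. It was also highest for 6 of 9 osteoclast markers and regulators. Of 27 collagens, 7 were highest in adult replicate 2, 17 in adult replicate 3 and 2 in adult replicate 1. The 7 included cartilage collagens: COL2A1A had 5, 137 and 108 normalized counts in adult fish, and COL9A2 13, 90 and 35. The collagen sum was lowest in adult replicate 2 (45117 normalized counts, against 72260 and 85733). COL1A1A, the largest entry of that sum, had 20379, 11756 and 23393 in adult fish. Old replicate 3 was highest for 6 of 9 osteoclast markers and regulators, among them the regulators TNFSF11 and TNFRSF11B. The leukocyte markers summed to 1262 normalized counts in adult replicate 2, against 742 and 492 in the other adult libraries. The part of such cells in the result was not tested. With young replicate 1 and adult replicate 2 both left out, a choice made after seeing the data, 3 of 11 tested entries were called lower in adult and 5 in old versus young muscle. Over all tested entries the shares called lower were then 7.88% and 7.54%.

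Genes that work beside this set were taken from lists written from general knowledge, and the chart of called shares gives their counts. For every list, the shares over all tested entries in old versus young muscle were 9.84% called lower and 7.91% higher. In adult versus young muscle these shares were 11.4% and 10.7%. The collagens of cartilage and bone fell in many entries: of 27 tested entries, 22 were called lower in old and 8 in adult versus young muscle and 0 higher in either (limma), with medians of -1.78 and -0.91 log2. COL9A1 entry 925931, a collagen on the surface of cartilage fibrils, had 43, 168 and 121 normalized counts in young fish, 0, 0 and 4 in adult fish and 0, 0 and 0 in old fish. This entry passed the filter on low values only through its young libraries.

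Other proteins of the cartilage matrix moved in both directions. Of 28 tested entries, 6 were called lower and 5 higher in old versus young muscle, and 3 lower and 6 higher in adult versus young muscle. EPYC, epiphycan, a small proteoglycan of growing cartilage, had 238, 203 and 158 normalized counts in young fish, 10, 98 and 52 in adult fish and 1, 20 and 0 in old fish (old versus young log2 fold change -5.83, adjusted p = 0.00193, limma). LECT1 entry 178691, chondromodulin, an inhibitor of vessel growth in cartilage, had 70, 39 and 51 in young fish, 1, 24 and 16 in adult fish and 2, 0 and 0 in old fish. UCMAB, a protein of the unmineralized cartilage zone in mammals, went the other way with 10, 20 and 10 in young fish, 72, 53 and 61 in adult fish and 52, 86 and 71 in old fish (old versus young 2.34, adjusted p = 0.000515, limma). The ages overlapped for its other copy, UCMAA, with 170, 170 and 163 in young fish, 164, 109 and 214 in adult fish and 102, 124 and 188 in old fish. CTGF, a growth factor that binds matrix, was higher in adult than in young muscle (log2 fold change 2.55, adjusted p = 0.000315) and lower in old than in adult muscle (-1.91, adjusted p = 0.0192, limma), with 134, 91 and 77 in young fish, 512, 884 and 428 in adult fish and 128, 113 and 250 in old fish.

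Among 25 tested entries of bone matrix and mineralization, 4 were called lower and 1 higher in old versus young muscle, and 1 lower and 1 higher in adult versus young muscle, with medians of -0.94 and -0.69 log2. SPP1, osteopontin, had 320, 415 and 555 normalized counts in young fish, 92, 262 and 92 in adult fish and 4, 38 and 71 in old fish (old versus young log2 fold change -4.12, adjusted p = 0.00319, limma). FGF23 entry 685138, a hormone of phosphate balance made by bone cells in mammals, was higher in old fish, with 10, 5 and 12 in young fish, 13, 5 and 10 in adult fish and 31, 34 and 36 in old fish (old versus young 1.86, adjusted p = 0.00704, limma).

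Transcription factors and signals of the skeleton other than SOX9, RUNX2 and SP7 gave 3 lower and 5 higher calls of 34 tested entries in old versus young muscle, and 2 lower and 5 higher in adult versus young muscle. Over all tested entries, 9.84% were called lower and 7.91% higher in old versus young muscle. In adult versus young muscle it was 11.4% and 10.7%. SOX5 entry 378240, a partner of SOX9 in chondrocytes that other cells also use, had 73, 83 and 82 normalized counts in young fish, 156, 182 and 190 in adult fish and 236, 194 and 183 in old fish (old versus young log2 fold change 1.35, adjusted p = 0.000422, limma). NKX3.2, a factor of early chondrocytes, had 13, 29 and 21 in young fish, 0, 5 and 0 in adult fish and 2, 1 and 0 in old fish. It passed the filter on low values through its young libraries, so its lower call in adult versus young muscle is given with no p.

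Relatives of SPARC were called in both directions. Of 7 tested entries, 2 were called higher and 1 lower in old versus young muscle and 3 higher and 0 lower in adult versus young muscle. SPOCK3 entry 896111, a proteoglycan with a SPARC-like domain, had 105, 119 and 107 normalized counts in young fish, 761, 549 and 405 in adult fish and 1393, 605 and 817 in old fish (old versus young log2 fold change 2.99, adjusted p = 0.000117, limma). SPOCK1 entry 851783 had 5, 18 and 12 in young, 4, 6 and 7 in adult and 1 in each old library. This entry too passed the filter on low values through its young libraries, so its lower call in old versus young muscle is given with no p.

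Markers and regulators of osteoclasts, the cells that resorb bone, gave 1 lower and 0 higher call of 9 tested entries in old versus young muscle. In adult versus young muscle they gave 0 lower and 2 higher, namely OSTM1 and the regulator TNFRSF11B (entry 868590). The lower one was TNFRSF11A, the receptor RANK, with 46, 39 and 54 normalized counts in young fish, 34, 64 and 33 in adult fish and 4, 24 and 22 in old fish (adjusted p = 0.0335, limma). Markers of tendon and connective tissue fibroblasts, which also make SPARC, gave 4 lower and 1 higher of 26 in old versus young muscle and 3 lower and 0 higher in adult versus young muscle. PDGFRB, a receptor of pericytes and fibroblasts, was the higher one, with 114, 159 and 153 in young fish, 247, 251 and 310 in adult fish and 331, 268 and 261 in old fish, and of a pair of FN1 (fibronectin) entries, entry 402914 was called lower in both later ages with 1631, 1554 and 1451 in young fish, 684, 637 and 969 in adult fish and 528, 916 and 582 in old fish. All of these lists were described by counts only and were not tested as lists.

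**Figure D4:**
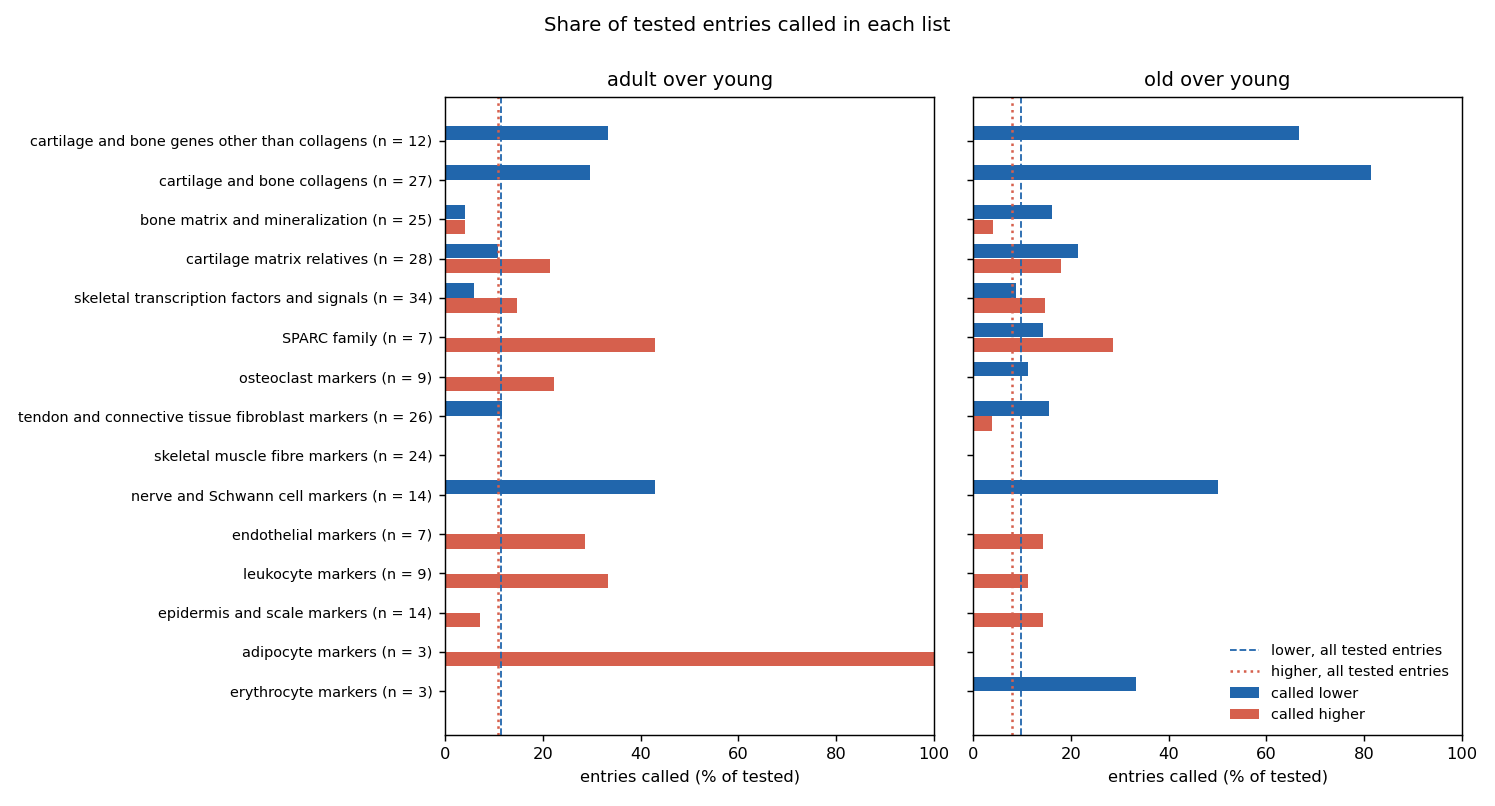
Percent of tested entries called lower (blue) or higher (red) with limma in adult over young and old over young muscle, for the cartilage and bone genes other than collagens and for 14 lists of other genes, with the number of tested entries; dashed and dotted lines are the shares over all 17454 tested entries. In old over young muscle 8 of 12 entries of the set, 22 of 27 collagen entries and 7 of 14 nerve and Schwann cell entries were called lower and 0 higher. Entries that passed the filter on low values only through their young libraries are included in these counts. Lists of 3 entries move in large steps.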

How the data were processed

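RNA sequencing of whole skeletal muscle of 9 killifish was used, 3 per age, with 1 column per library and 0 columns left out. According to the sources, the authors trimmed reads with Trimmomatic 0.33, aligned them to genome NotFur1 with STAR 2.4.2a and counted them per gene with featureCounts 1.4.5-p1, leaving out reads that fit several genes; the strand setting of the counting is not given in the sources used here, so overlapping antisense genes cannot be told apart. The deposited values are a signal: counts divided by 1 size factor per library and rounded. As they are normalized, count models were not used. The count model of the paper was replaced, with its limits kept, by limma 3.58.1 (eBayes with trend, R 4.3.3) on log2(value + 1), entries with a mean of at least 5, 1 mean per age, Benjamini-Hochberg over 17454 entries; fold changes on this scale understate those of low entries.

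Size factors were estimated from the spacing of low values (0.693 to 1.25). Only 61.1 to 100% of the low values traced to 1 read number, so reads were rebuilt for MATN3 ratios alone, where they are approximate. A floor of 3 normalized counts per library gave bounds. Duplicated names were reported as separate, uncertain entries. The fit was tested on simulated data. The members, the lists and the tests were chosen with earlier results of these data known.

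Every entry of the 10 genes was named, and of each list up to 2 called entries per direction with the smallest p. For entries with a mean of at least 50, the 3 most alike profiles were named, searched among tested entries with a gene name only. Of the named list entries, some are given only within the list counts. STC1 (797 in 1 library) was chosen after its values were seen, as were the names in the closing observations. Nothing says that fish of equal number were related. Figures were drawn with matplotlib 3.10.9 in Python 3.11.15. No sequence is shown, because none was in the sources used here.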

Additional observations from a re-analysis of the deposited data

How the results depend on the processing

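The 34 single log2 fold changes, each under 19 to 21 alternative settings, gave 692 values. Of these, 651 kept their direction and side of the limits, 24 lost a call, 7 gained one, 9 changed sign and 1 came to 0. The sign changes and the 0 were among uncalled values only. Leaving out 1 library, the changes of sign gave ranges of -0.49 to 0.67 for ACANA in old versus adult muscle and, in adult versus young muscle, of -2.18 to 0.22 for ACANB entry 509995, -0.35 to 0.81 for MATN1, -0.28 to 0.52 for CHAD and -0.23 to 0.57 for SOX9 entry 878496. With young replicate 1 and adult replicate 2 both left out, ACANA was at -0.49 and CHAD at -0.31. Requiring a mean of at least 50 left 5 entries to test and 2, 3, 0 and 3 calls in adult versus young, old versus young, old versus adult muscle and the F test; the treat test gave 2, 2 and 0. Leaving out 1 library gave 3 to 6, 5 to 8, 0 to 1 and 5 to 8 calls of 12. Over all tested entries, 8.45 to 12.1%, 6.4 to 10.6% and 0.354 to 1.56% were then called lower, and 3854 to 6471 passed the F test. Leaving out both young replicate 1 and adult replicate 2, chosen after seeing the data, gave 5 of 11 tested entries in old versus young muscle, where 7.54% of all tested entries were called lower. Other pseudocounts, scalings, weights, the 2 ages alone and no fold-change limit kept each count within 1.5 times. With the replicate block the counts were 4, 7, 0 and 7, where 11%, 9.32% and 0.905% of all tested entries were called lower and 5522 passed the F test. Same-numbered libraries of different ages had correlations of -0.0786 to 0.106, and differently numbered ones of -0.105 to 0.116. With 3 libraries per age these values cannot settle whether equal numbers pair fish. Equal library totals moved the median of all entries in old versus young muscle to -0.30 and the share of lower calls to 76.7%, against 55.4% as reported (62.1% against 51.5% in adult versus young and 72.3% against 60.4% in old versus adult muscle). SPARC was then called lower (-1.05, adjusted p = 0.00644, limma), but lay 0.756 log2 under that median, against 0.748 as reported. The cause of these shifts was not tested. CHAD, SOX9 entry 318686 and ACANB entry 509995 had means between 6 and 11 normalized counts, where 1 read is worth 0.801 to 1.44.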

Other observations

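Entries of cartilage genes with the same name did not always share a profile. COL9A1 entry 925931 was highest in young replicate 2 and near 0 later, while entry 521372 had 59, 3 and 19 normalized counts in young fish, 2, 35 and 17 in adult fish and 3, 1 and 0 in old fish, and entry 521430 had 67, 5 and 8 in young fish, 5, 26 and 12 in adult fish and 0, 3 and 1 in old fish. The same held for LECT1: entry 178691, given above, was highest in young replicate 1 and kept 24 normalized counts in adult replicate 2, and entry 465935 had 7, 40 and 21 in young fish, 0, 0 and 1 in adult fish and 0, 1 and 0 in old fish. MATN3 and NKX3.2 had the order of the first COL9A1 entry within young fish, and ACANB and MATN1 that of the others.

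COL2A1A, the main collagen of cartilage, had 1140, 1080 and 760 normalized counts in young fish, 5, 137 and 108 in adult fish and 1, 4 and 6 in old fish, whereas COL2A1B had 1675, 948 and 1337 in young fish, 662, 662 and 825 in adult fish and 342, 543 and 737 in old fish. MATN4, a matrilin outside the set, had 51, 51 and 70 in young fish, 98, 9 and 38 in adult fish and 6, 18 and 120 in old fish, and was called in 0 of the 3 comparisons with limma.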
